A study of Mus musculus with 8 samples.

Results

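Insulin-like growth factor 1 (Igf1), the pappalysin proteases Pappa2 and Pappa, the binding proteins Igfbp3, Igfbp4, Igfbp5 and Igfbp7, the receptors Igf1r and Igf2r, and the adaptor Irs1 were followed in mouse cardiac endothelial cells (MCECs). These 10 IGF axis genes were chosen by name, with earlier results of the same libraries known, and 9 of them had a row among the 8278 genes of the deposited table. Igfbp5 had no row and gets no value here. All 8278 rows carry a deposited adjusted p-value under 0.05 for this same contrast, with no limit on the size of the change, so each listed gene had to differ and the rows are not the study's own list of changed genes. Levels and fold changes of the 9 genes are therefore a description, and no p-value is given for them or for any other gene of the table.

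MCEC is an established mouse cardiac endothelial line. Hdac3 KO MCECs carried a lentiviral CRISPR/Cas9 construct with a guide against Hdac3, and EV MCECs had received the empty vector lentivirus; both were grown in DMEM with 10% fetal bovine serum. Each group had 4 bulk RNA-Seq libraries, and the study used them to look for growth signals that endothelial cells send to heart muscle cells. Neither a clonal origin of the KO cells nor separate cultures behind the libraries are given in the sources used here, and the study speaks in general terms both of technical replicates in vitro and of independent repeats, so the spread between libraries may be technical.

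IGF1 and IGF2 are secreted peptides that promote growth and survival through the receptor tyrosine kinase encoded by Igf1r, which phosphorylates Irs1 and thereby recruits PI3-kinase and Akt. Most of the extracellular ligand is held by binding proteins, which limit or prolong its action. Pappalysins are secreted proteases that cut some of these binding proteins and release the ligand: PAPP-A cuts mainly IGFBP4, and PAPP-A2 cuts IGFBP3 and IGFBP5. Igf2r encodes the receptor that binds IGF2 and carries it to the lysosome without signalling through a kinase.

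The promoter sequences of the 3 genes with the lowest log2 fold changes, Igf1, Pappa2 and Igfbp3, are shown with that of Igfbp4, a binding protein gene that was higher in KO MCECs. Each is the 250 bases before the transcription start given by RefSeq on GRCm38.p6 (mm10), 5' to 3' on the strand of the gene, with CG dinucleotides in capitals. The positions are chr10:87860861-87861110 (plus strand) for Igf1, chr1:158958176-158958425 (minus strand) for Pappa2, chr11:7213924-7214173 (minus strand) for Igfbp3 and chr11:99040994-99041243 (plus strand) for Igfbp4.
Igf1: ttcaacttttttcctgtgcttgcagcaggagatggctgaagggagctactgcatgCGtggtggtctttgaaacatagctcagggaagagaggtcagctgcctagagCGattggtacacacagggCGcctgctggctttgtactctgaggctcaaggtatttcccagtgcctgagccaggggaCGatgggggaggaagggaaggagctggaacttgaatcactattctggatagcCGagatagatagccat
Pappa2: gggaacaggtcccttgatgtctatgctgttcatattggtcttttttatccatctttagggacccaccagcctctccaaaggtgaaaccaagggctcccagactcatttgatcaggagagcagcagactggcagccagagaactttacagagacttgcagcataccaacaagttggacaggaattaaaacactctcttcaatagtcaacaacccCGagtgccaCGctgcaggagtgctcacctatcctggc
Igfbp3: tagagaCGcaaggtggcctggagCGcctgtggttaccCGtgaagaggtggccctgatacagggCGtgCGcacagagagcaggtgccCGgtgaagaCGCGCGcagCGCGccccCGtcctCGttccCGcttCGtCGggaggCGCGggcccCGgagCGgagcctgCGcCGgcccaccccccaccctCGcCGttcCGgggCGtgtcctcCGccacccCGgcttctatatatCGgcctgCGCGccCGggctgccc
Igfbp4: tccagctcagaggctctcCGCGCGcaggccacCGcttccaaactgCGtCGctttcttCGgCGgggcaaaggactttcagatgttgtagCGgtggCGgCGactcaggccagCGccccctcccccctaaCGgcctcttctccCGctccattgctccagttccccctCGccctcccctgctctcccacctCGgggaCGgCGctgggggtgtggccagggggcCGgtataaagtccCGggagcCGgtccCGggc

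RefSeq promoters were matched for 9 of the 10 genes, by symbol; Pappa was not among them. The Igf1 promoter held 5 CG dinucleotides and that of Pappa2 held 2, against a median of 16 (quartiles 9 and 23) over the 7870 promoters of genes of the table. Promoters of Igfbp3 with 32, Igfbp4 with 22, Igfbp7 with 26, Irs1 with 28, Igf2r with 27 and Igf1r with 42 lay near or above that upper quartile, and Igfbp5 had 10. Over all 32851 promoters the median was 6 (quartiles 2 and 16), so the 5 of Igf1 were near typical there. Against the promoters of the table's genes, low and high CG content were both found among genes far lower in KO MCECs. Igf1 and Pappa2 on one side and Igfbp3 on the other show this. The RefSeq starts of Igf1 and Pappa2 lie inside the gene bodies of the table, and which start is used in MCECs was not measured.

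Short motifs were searched on both strands of these windows. TATAAA was found in Igfbp4 alone among the 9 (6.48% of promoters of genes of the table hold it), and GGGCGG, a core of GC boxes, in Igf1r, Igf2r, Igfbp7 and Irs1 (59.1% of the table's promoters). CCAAT was found in Igf1 and Pappa2 (35.1% of the table's promoters). These matches describe letters in the windows and say nothing of binding.

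Library totals ranged from 15775327 to 21262575 reads in EV and from 19356714 to 22255684 in KO MCECs, and the listed genes held 84.3% to 85.9% of them. The targeted gene Hdac3 had 1934, 2067, 2055 and 2137 normalized counts in the EV libraries and 1551, 1458, 1489 and 1524 in the KO libraries. The KO level of the Hdac3 transcript was thus 73.5% of the EV level (log2 fold change -0.45, standard error 0.04), with no overlap between groups; the study checked the loss of HDAC3 protein by western blot, which is not analysed here. A normalized count is a read count divided by the relative library size, and FPKM is the authors' count scaled by gene length and by the total of the library.

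Of the endothelial marker list, 6 of 14 genes had a row, and Cdh5, Tie1, Emcn, Vwf, Nos3, Cldn5, Erg and Esam had none, which in a table of called genes does not show absence. Pecam1, the endothelial adhesion molecule CD31, had 2 reads over all EV libraries and 17 over all KO libraries and was the sole listed endothelial marker that was higher. The other 5, Kdr, Flt1, Tek, Eng and Egfl7, were lower (log2 fold changes -1.20, -0.26, -1.41, -0.16 and -0.47), with Eng, a TGF-beta co-receptor, the most abundant at 1436 ± 58 normalized counts in EV and 1285 ± 30 in KO MCECs (SD, n = 4 each). The summed endothelial markers were 1851 to 2040 normalized counts in EV and 1619 to 1734 in KO MCECs. The 6 of 10 fibroblast or mesenchymal markers with a row summed to 130076 to 137060 in EV and 118739 to 122163 in KO MCECs. Col3a1 and Col1a1 supplied most of that sum (77274 and 41392 normalized counts in EV MCECs), at log2 fold changes of -0.26 and 0.23. Pdgfrb, Pdgfra and Dcn were far lower (-2.29, -1.42 and -1.21), and Thy1 was at -0.13. Of the listed markers, 5 of 6 endothelial, 5 of 6 mesenchymal and both smooth muscle markers were called lower by edgeR, where 49.6% of all genes of the table were, the last summing to 734 to 923 in EV and 162 to 204 in KO MCECs. No cardiomyocyte marker of 8 had a row, and 1 leukocyte marker of 6, Cd68, was higher. The part of these differences in the results below was not tested, and in bulk RNA fewer cells of a type and less RNA per cell cannot be told apart.

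Igf1, the ligand (ENSMUSG00000020053, chr10:87858265-87937042, plus strand, mm10), had 43, 60, 68 and 58 reads in the EV libraries and 2, 4, 5 and 2 in the KO libraries. Every KO library was far below every EV library. Normalized counts averaged 59.8 ± 10.3 (SD, n = 4) in EV and 3.07 ± 1.33 (SD, n = 4) in KO MCECs, which is 5.14% of the EV level; on the log2 scale the change was -4.21 with a standard error of 0.30. It ranked 13th from the lowest log2 fold change of the table. The reads pooled over libraries, 229 against 13, gave a ratio of 19.2 (exact binomial 95% interval 11.01 to 36.6). Intervals of this kind cover counting error only, since reads without molecular identifiers are not independent molecules. Even in EV MCECs Igf1 was a rare transcript, at 0.453 ± 0.078 FPKM (SD, n = 4), against 0.0215 ± 0.0093 FPKM in KO MCECs. These are RNA levels, and protein is not analysed here. The study ran western blots of several growth factors, IGF1 among them, and reported a significant decrease in KO MCECs for TGFβ3 alone.

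Pappa2, the protease that releases IGFs from IGFBP3 and IGFBP5 (ENSMUSG00000073530, chr1:158711727-158980490, minus strand), had 130, 151, 144 and 174 reads in EV and 27, 24, 19 and 25 in KO libraries. The groups did not overlap, and the KO libraries were all below 30 reads. The normalized mean was 156 ± 7.5 (SD, n = 4) in EV and 22.8 ± 4.3 (SD, n = 4) in KO MCECs, or 14.6% of EV (log2 fold change -2.77, standard error 0.15). By pooled reads the ratio was 6.87 (exact binomial 95% interval 5.53 to 8.63). In the annotation, 3.01% of its exonic bases are shared with 1600012P17Rik on the same strand.

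Pappa, the related protease for IGFBP4 (ENSMUSG00000028370, chr4:65124174-65357509, plus strand), was close to the detection limit, with 8, 10, 3 and 8 reads in EV and 0, 6, 2 and 2 in KO libraries. Here the groups overlapped, since the KO library with 6 reads stood above the EV library with 3. The KO library with 0 reads allows up to 0.0141 FPKM (3 counts). The pooled ratio of 29 to 10 reads was 3.16 (exact binomial 95% interval 1.497 to 7.27). The fitted log2 difference of -1.61 (standard error 0.58) moved to -2.43 without KO replicate 2 and to -1.25 without KO replicate 1, so its size rests on single libraries.

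**Figure D1:**
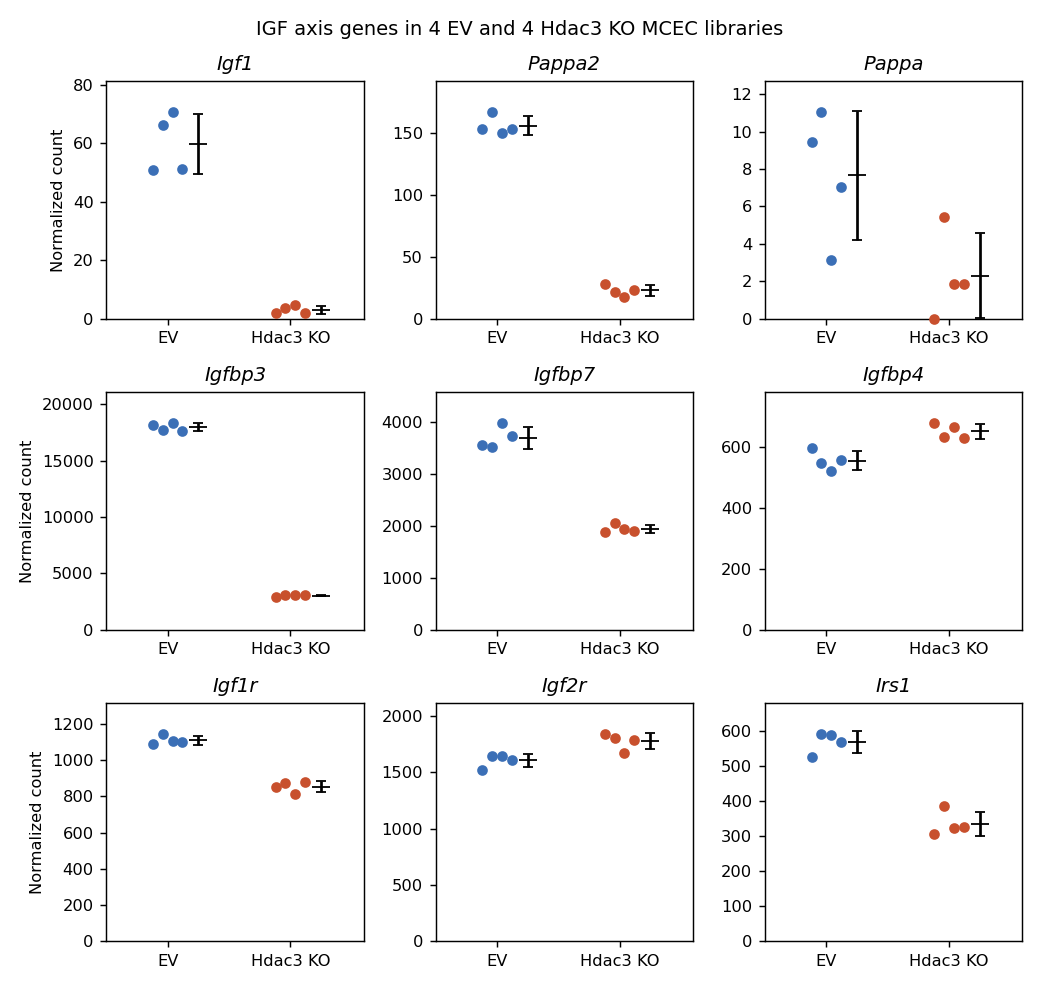
Normalized counts (linear axes from 0) of the 9 listed IGF axis genes in 4 EV (blue) and 4 Hdac3 KO (red) MCEC libraries; bars give the mean and SD. KO points lie below all EV points in 6 genes and above them in Igfbp4 and Igf2r, and only Pappa has overlapping groups. Of all genes of the table, 46.6% were lower and 44.4% higher without overlap on this scale. By FPKM, Igfbp4 and Igf2r overlap as well.

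Igfbp3 encodes the main carrier of IGFs in blood and is the most abundant of these transcripts in EV MCECs (ENSMUSG00000020427, chr11:7206086-7213923, minus strand). It had 18186, 17729, 18335 and 17675 normalized counts in EV and 2942, 3051, 3073 and 3096 in KO libraries. The libraries of a group lay close together and the groups far apart. The KO mean of 3041 ± 68 (SD, n = 4) was 16.9% of the EV mean of 17981 ± 329 (SD, n = 4), with a log2 fold change of -2.56 (standard error 0.03). By FPKM it was 128th of the 8278 genes in EV and 1064th in KO MCECs, at 397 ± 8.7 and 61.9 ± 1.3 FPKM (SD, n = 4 each).

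Igfbp7, a secreted protein related to the binding proteins with low affinity for IGFs (ENSMUSG00000036256, chr5:77349240-77408045, minus strand), had 3552, 3508, 3976 and 3738 normalized counts in EV and 1878, 2057, 1931 and 1897 in KO libraries. The highest KO library stayed well below the lowest EV library. The KO level was 52.5% of EV (log2 fold change -0.93, standard error 0.04). Polr2b, which overlaps the Igfbp7 gene body by 85 bases on the other strand and 7.03% of its exonic bases, was higher (log2 fold change 0.30), and use of strand in the counting is not stated.

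Igfbp4, the binding protein cut by PAPP-A (ENSMUSG00000017493, chr11:99041244-99054392, plus strand), went the other way, with 597, 547, 523 and 558 normalized counts in EV and 680, 633, 668 and 630 in KO libraries. These groups did not overlap, but they were near each other. The log2 fold change was 0.23 (standard error 0.05), a KO level of 117% of EV. With library totals and no TMM factors it was 0.11, and the FPKM ranges of 7.32 to 8.36 in EV and 8.08 to 8.75 in KO MCECs overlapped.

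The binding protein transcripts with a row, Igfbp3, Igfbp4, Igfbp7 and Igfbp6 (a binding protein that prefers IGF2, outside the 10 genes), summed to 594 ± 16.5 FPKM in EV and 179 ± 3.9 FPKM in KO MCECs (SD, n = 4 each), or 30.1% of EV. Igfbp3 made up 66.9% of that sum in EV and 34.6% in KO MCECs. The share of Igfbp7 went from 27.4% to 44.1%, that of Igfbp6 from 4.42% to 16.6% and that of Igfbp4 from 1.31% to 4.70%. Igfbp7 itself was lower, so its larger share reflects the smaller sum. Igfbp3 was 2.44 times Igfbp7 by FPKM in EV and 0.786 times Igfbp7 in KO MCECs.

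**Figure D2:**
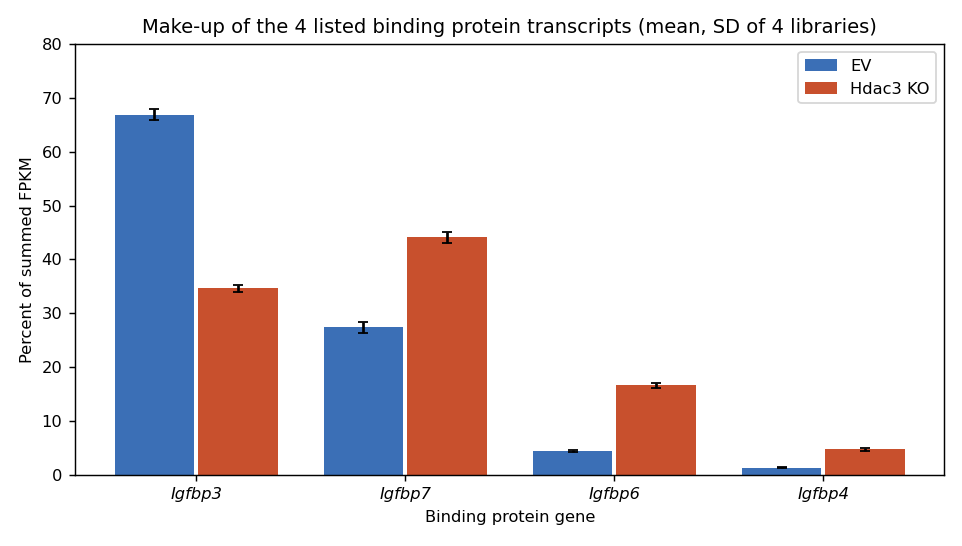
Percent of the summed FPKM of the 4 listed binding protein genes that each supplied in EV (blue) and Hdac3 KO (red) MCECs; bars are means and whiskers SDs of 4 libraries. Igfbp3 leads in EV at 66.9% and Igfbp7 leads in KO at 44.1%.

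Igf1r, the signalling receptor (ENSMUSG00000005533, chr7:67952859-68226780, plus strand), had 1089, 1144, 1108 and 1102 normalized counts in EV and 851, 872, 812 and 877 in KO libraries. All KO libraries were lower, at 76.8% of EV (log2 fold change -0.38, standard error 0.04). Igf2r, the lysosomal IGF2 receptor (ENSMUSG00000023830, chr17:12682406-12769664, minus strand), had 1523, 1648, 1644 and 1613 in EV and 1840, 1811, 1676 and 1789 in KO libraries. Its groups did not overlap on this scale, with a log2 fold change of 0.15 (standard error 0.04). Without TMM factors the value was 0.03, and the FPKM of 9.66 ± 0.33 in EV and 9.86 ± 0.40 in KO MCECs (SD, n = 4 each) overlapped, so a higher Igf2r depends on the scaling. The ratio of Igf2r to Igf1r FPKM, which the scaling does not touch, was 0.731 ± 0.019 in EV and 1.05 ± 0.03 in KO MCECs (SD, n = 4 each), with no overlap. The level of this ratio rests on the table's Igf1r length of 4489 bases, where GENCODE M21 gives 16791 exonic bases. Its change between groups does not depend on that length.

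Irs1, the adaptor that links the receptor to PI3-kinase (ENSMUSG00000055980, chr1:82233101-82291416, minus strand), had 524, 590, 589 and 569 normalized counts in EV and 305, 384, 321 and 327 in KO libraries. The KO level was 58.9% of EV without overlap (log2 fold change -0.76, standard error 0.06). Gm9747 covers 30.9% of its exonic bases on the other strand, and without strand in the counting, reads of the pair cannot be told apart. The related adaptor Irs2, picked after its values were seen, was lower as well (log2 fold change -0.55), and Irs1 made up 9.69% of their summed FPKM in EV and 8.48% in KO MCECs.

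Counted like the rest of the table, the 9 genes passed the cut-off of 0.01 on the adjusted p-value of the edgeR fit, 7 lower and 2 higher, where 49.6% and 47.1% of all genes of the table were (96.7% in either direction). Without overlap between groups, 6 were lower and 2 higher, where 46.6% and 44.4% of all genes were. The calls of Igf2r and Igfbp4 were lost without TMM factors, that of Igf2r also with upper-quartile factors, and that of Pappa with DESeq2 and in 6 of the 8 fits with 1 library left out (all but those without EV replicate 3 or KO replicate 2). Because the genes were chosen on this contrast, nothing is read from these shares. The median log2 fold change of the 9 was -0.93, against 0.06 over all genes of the table.

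**Figure D3:**
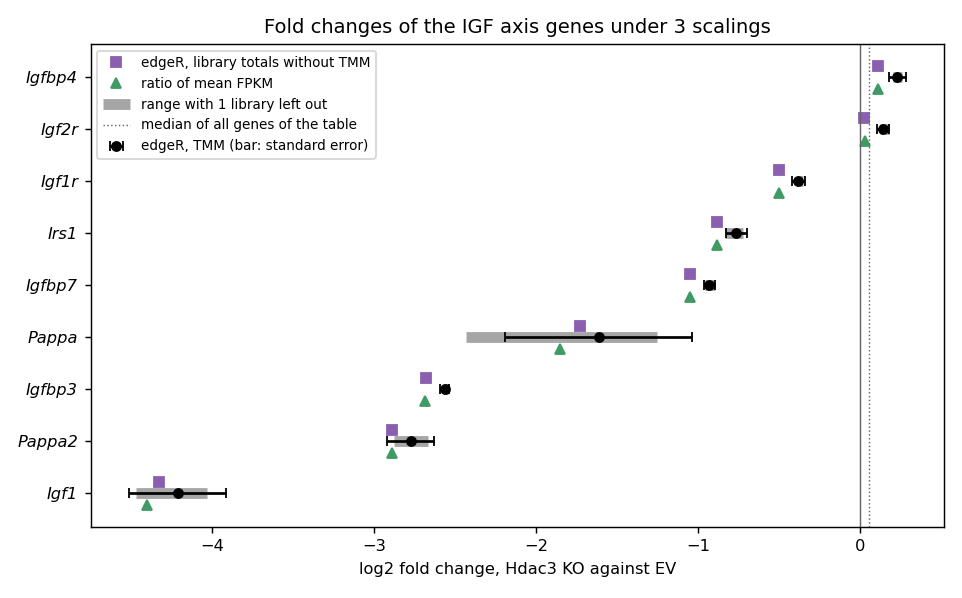
Log2 fold change of Hdac3 KO against EV MCECs for each gene; black points with standard error bars are the edgeR fit with TMM, squares the fit with library totals alone, triangles the ratio of mean FPKM, and grey bars the range with 1 library left out. Both other scalings place every gene further to the left, most for Igf1 and Pappa by mean FPKM, and leave Igf2r near 0, and Pappa has the widest range with 1 library left out.

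By FPKM the order in EV MCECs was Igfbp3, Igfbp7, Igf1r, Igf2r, Igfbp4, Irs1, Pappa2, Igf1 and Pappa, and no 2 neighbours in that order had overlapping libraries. In KO MCECs Igfbp7 (78.8 ± 3.4 FPKM) stood above Igfbp3, followed by Igf2r and Igf1r (9.36 ± 0.32 FPKM), whose libraries overlapped. Igfbp4, Irs1 (1.80 ± 0.19 FPKM), Pappa2 (0.118 ± 0.022 FPKM), Igf1 and Pappa came next, the last pair overlapping (SD, n = 4 for each). The place of Igf1r rests on the table's length of 4489 bases, where GENCODE M21 gives 16791 exonic bases. Among the genes of the table, only Igfbp3 and Igfbp7 of the 9 ranked high in EV MCECs (128th and 345th), Igf1r, Igf2r and Igfbp4 were at ranks 4101, 4840 and 5307 of 8278, and Pappa2, Igf1 and Pappa were near the bottom.

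**Figure D4:**
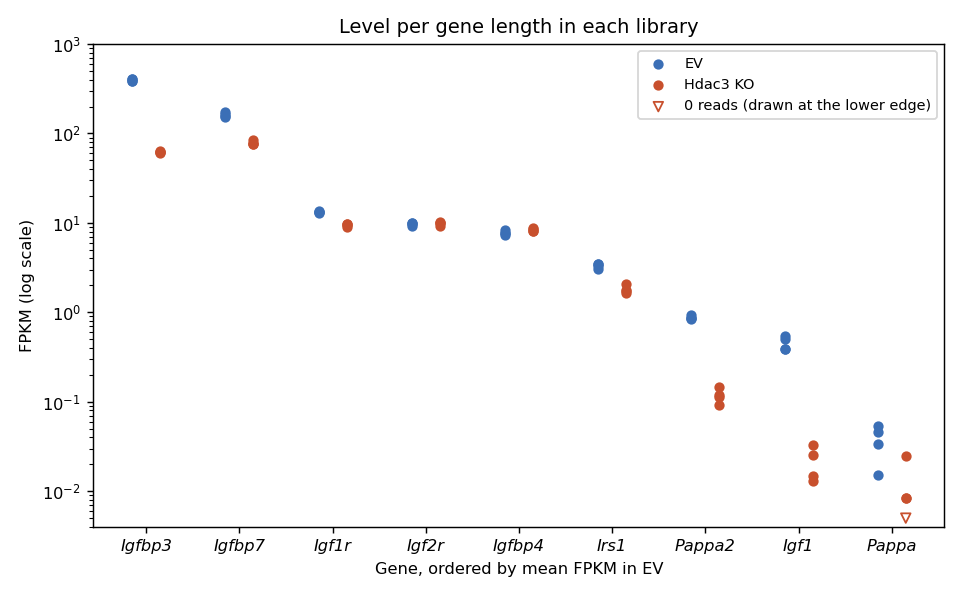
FPKM on a log axis in each EV (blue) and Hdac3 KO (red) library, with genes ordered by their EV mean; the open triangle marks the KO library with 0 Pappa reads at the lower edge. Igfbp3 drops from 397 to 61.9 FPKM, below Igfbp7, and Igf1 from 0.453 to 0.0215 FPKM.

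The wider pathway list of 62 other genes had 33 with a row, of which 16 were lower, 16 higher and 1, Shc1, not called (edgeR quasi-likelihood test, adjusted p under the same cut-off), close to the 49.6% lower and 47.1% higher over the whole table. Their median log2 fold change was 0.05, against 0.06 over all genes. No ligand of the list (Igf2, Ins1, Ins2) had a row, so Igf1 was the sole listed ligand. Of the receptors, Insr, the insulin receptor, was at -0.69 on the log2 scale and Insrr had no row. Of the 12 adaptors of the list, 5 had a row, of which 3 were lower and 1 higher. Of the 22 genes of the PI3K-Akt-mTOR arm, 12 had a row, of which 8 were lower and 4 higher. Of the 10 negative regulators, 4 were lower and 6 higher, and both Igf2 mRNA-binding proteins with a row were higher. Insr and Igfbp6 were named after their values were seen, as relatives of the 10 genes.

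Stc2, a secreted glycoprotein that inhibits pappalysins, was 1 of 4 list genes, all higher, past both the cut-off and an absolute log2 fold change of 1 (of all genes of the table, 8.36% were lower and 4.43% higher by these limits). It had 102, 104, 95.7 and 112 normalized counts in EV and 330, 290, 326 and 326 in KO libraries, without overlap (log2 fold change 1.61, standard error 0.09). Stc2 was 1.59 ± 0.11 times Pappa2 by FPKM in EV and 34.2 ± 6.8 times in KO MCECs (SD, n = 4 each). Trib3, a pseudokinase that binds Akt, had 594, 692, 639 and 724 normalized counts in EV and 2653, 2523, 2578 and 2665 in KO libraries (log2 fold change 1.97, standard error 0.04). Ddit4, an inhibitor of mTORC1, was higher by 1.26 on the log2 scale (standard error 0.05), and Eif4ebp1, the translation repressor that mTORC1 phosphorylates, by 1.01 (standard error 0.03). All 4 were higher in every KO library than in any EV library, where 44.4% of all genes of the table were. All come from the same selected table and were kept for their large fold changes, so nothing is read from that. Eif4ebp1 was at 0.89 with library totals and no TMM factors, at 0.94 with upper-quartile factors, and just under 1 without EV replicate 2 or EV replicate 3, so its place past that limit depends on the scaling and on single libraries. Without KO replicate 1, Socs1, which encodes a feedback inhibitor of cytokine signalling and was lower, also passed the limit, making 5 genes. Socs1 had few reads (18, 19, 30 and 34 in EV and 21, 13, 12 and 16 in KO libraries), and over all libraries its groups overlapped.

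For these 3 genes of lowest fold change, Igf1, Pappa2 and Igfbp3, the other genes with the closest pattern over the 8 libraries were sought among 7943 genes, by root-mean-square distance of log2(normalized count + 1) from the EV mean. For Igfbp3 these were Npnt (distance 0.059), Alcam (0.077) and Tgfb3 (0.097), with log2 fold changes of -2.52, -2.67 and -2.48. Alcam (0.178), Npnt (0.229) and Sema6d (0.230) were closest to Pappa2. Igf1 had no close match: Kif26b (0.646), Dnm3os (0.696) and Tmem178 (0.730) were nearest. At 2 to 5 Igf1 reads per KO library, counting noise alone gives large distances, so nothing is read from the lack of a match. Dnm3os and Tmem178, at 5.70 and 5.07 normalized counts in KO MCECs, met the mean floor of 20 set for this search only through EV MCECs. With a pseudocount of 5, all 3 stayed for Igfbp3, 2 for Pappa2 and 0 for Igf1, so the Igf1 choice depends on the pseudocount.

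Within 500 kb of the 9 genes lay 34 other genes of the table, 11 lower and 23 higher by edgeR, where 49.6% and 47.1% of all genes of the table were. Next to Igf1 was Parpbp, 154 kb away, with a log2 fold change of 0.47, and next to Pappa2 was Rfwd2, 252 kb away, at -0.14. Adcy1, 27.6 kb from Igfbp3, was at -0.51 against -2.56 for Igfbp3 itself. None of the listed neighbours of these 3 genes was as low as the gene it lies beside. These 3 genes were picked for their low fold changes, so nothing is read from that. Fam169b, 47.1 kb from Igf1r, was at -1.28 on few reads (15.5 normalized counts in EV), below Igf1r itself at -0.38. Tcp1, 146 kb from Igf2r, was at 0.45 and Trim32, 247 kb from Pappa, at 0.11. Around Igfbp4, all 9 listed neighbours were higher (47.1% over the table), the nearest being Tns4 at 11.3 kb (0.50). Rhbdd1, 25035 bases from Irs1, was at 0.35. It was the 1 higher gene of 4 listed neighbours of Irs1. The 3 others were lower, the lowest at -0.98, below Irs1 itself at -0.76.

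**Figure D5:**
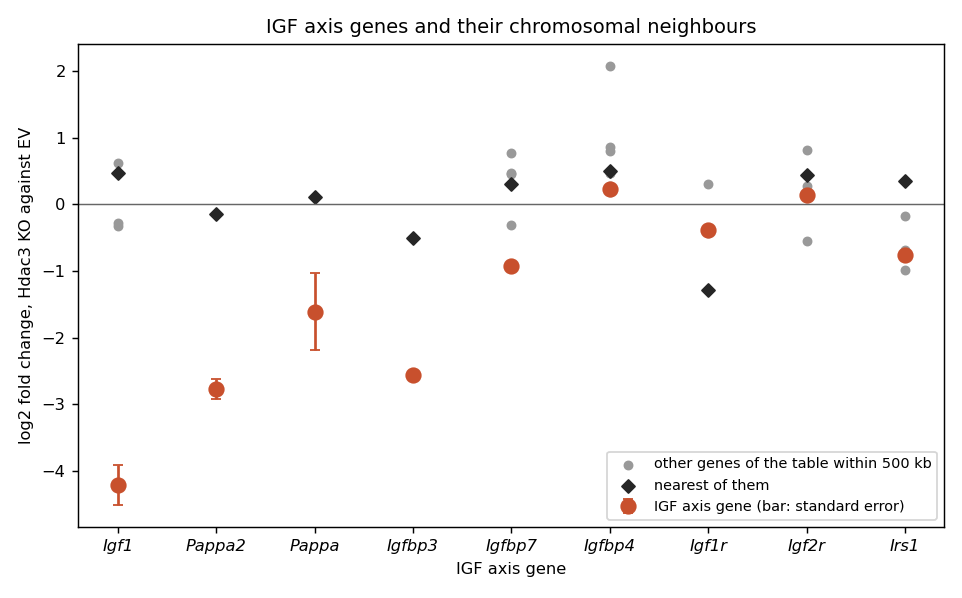
Log2 fold change of each IGF axis gene (red, with standard error) and of the listed genes within 500 kb (grey; black diamond, the nearest); 1 neighbour of Igfbp7 with 0 reads in EV MCECs is not drawn. Igf1, Pappa2 and Igfbp3, picked for their low fold changes, lie below all of their neighbours.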

How the data were processed

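Bulk RNA-Seq counts of 4 EV and 4 Hdac3 KO MCEC libraries were used, grouped by their labels. The authors used tophat2 with bowtie2 for alignment (mm10); the methods also name cufflinks, lumi and DESeq2, and the submitters' processing notes name CASAVA and DESeq 1.6.3. The program that counted reads is not given in the sources used here. The count columns were deposited as whole reads without normalization, and the FPKM columns deposited by the authors scale these by gene length and library total. Authors' columns of group means, fold changes, p-values and adjusted p-values were not used, beyond a check that every adjusted p-value is under 0.05. Library totals were recovered from count, length and FPKM.

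Counts of all 8278 genes, unfiltered, were fitted with edgeR 4.0.16 (R 4.3.3) by quasi-likelihood, with totals times TMM factors as library sizes, Benjamini-Hochberg adjustment and a cut-off of 0.01. The fit was tested on simulated data. The 10 genes and the lists were chosen with earlier results of these data known. Named were the 10 genes, list genes called with an absolute log2 fold change of at least 1, Hdac3, the 3 genes most alike to Igf1, Pappa2 and Igfbp3, and nearest or overlapping genes; marker and other list genes named outside this rule (Irs2, Insr, Igfbp6, Shc1, Socs1) were chosen after their values were seen. DESeq2 1.42.0, other scalings, a low-count filter (10 reads in 4 libraries) and leaving out libraries were tried. Promoters came from RefSeq (GRCm38.p6) and exon overlaps from GENCODE M21. Plots used matplotlib 3.10.9 and Python 3.11.15.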

Additional observations from a re-analysis of the deposited data

Results flagged for a closer look

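Normalized counts of the 9 genes were searched for a library far from the others of its group (Dixon's criterion at 95%, 18 groups of 4 libraries); 0 groups had one, where chance gives 0.9.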

How the results depend on the processing

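No gene of the 9 changed direction under the settings tried. With library totals and no TMM factors the median of all genes shifted by -0.12 on the log2 scale, and Igf1r went to -0.50, Igf2r to 0.03, Igfbp3 to -2.68, Igfbp4 to 0.11, Igfbp7 to -1.05 and Irs1 to -0.88; upper-quartile factors, added after seeing the data, gave 0.08 for Igf2r. Of the pathway list, an added limit of 1 on the absolute log2 fold change left 0 lower and 4 higher genes in edgeR (8.36% lower and 4.43% higher over the table), where without it 16 and 16 passed, and DESeq2 called 15 and 15. Totals without TMM gave 16 lower and 12 higher, with 3 past the limit of 1; without KO replicate 1 there were 5, with Socs1 lower. Leaving out 1 library gave 14 to 16 lower and 15 to 16 higher list genes, while 7 of the 9 genes had a negative fold change each time, of which 6 or 7 were called (Pappa was the one lost). The low-count filter removed Pappa and kept 8 of the 9, of which 6 were lower. Same-numbered libraries did not deviate together (correlations -0.09 to 0.10 over 4 pairs), which does not show whether they shared a culture or a preparation. A replicate block left 16 lower and 16 higher list genes and 7 lower genes of the 9. Depth limits Pappa, and Igf1 in KO MCECs, where 2 to 5 reads were counted per library.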
